A study of Mus musculus with 9 samples.

Results

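The interleukin-1 family genes followed here were the ligands Il1a, Il1b, Il33 and Il18, the antagonist Il1rn, the receptor subunits Il1r1, Il1rap and Il1rl1, the decoy receptor Il1r2 and the binding protein Il18bp, measured in mouse lung after 6 months of exposure to cigarette smoke (CS), to IQOS aerosol, from a product that heats tobacco without burning it, or to fresh air. They were grouped by function, with earlier results of these data known. A probe was counted as theirs when it was not a control and its accession was a RefSeq accession of 1 of them. This found 19 probes for 10 of the 22911 gene symbols on the array, and 17 of the 19 passed the filter on dim probes, at least 1 for each gene. The mice were C57BL/6J males, 12 weeks old when exposure began, and CS and IQOS aerosol were both given at 3.5%. Total RNA of the lung was hybridised to one-colour Agilent arrays, 3 per group, and each array is named by its group and its labelled replicate number.

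Interleukin-1α and interleukin-1β both signal through the receptor IL-1R1, which recruits the accessory protein IL-1RAP and the adaptor MyD88 and leads to NF-κB activation. The system carries its own brakes: IL-1RA occupies the receptor without signalling, IL-1R2 binds ligand without a signalling domain, and IL-18BP captures IL-18. Interleukin-33 is stored in the nuclei of epithelial and other barrier cells and acts through ST2, the product of Il1rl1, on innate lymphoid cells, mast cells and other cells of type 2 immunity. In the lung these cytokines are best known for recruiting neutrophils and for responses to damaged epithelium.

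Levels are given as relative signal, the spot signal as a percent of the 75th percentile of the same array, so that a value of 100 lies at that percentile. Values of different probes are not comparable as amounts of RNA. On each array, 64.3% to 68.8% of the 56605 probes exceeded background clearly, and the defining genes of alveolar type II cells, alveolar type I cells and airway epithelium on the array (10, 5 and 5 genes) were above background in every group. A second slide held the IQOS arrays alone, so an effect of that slide and of IQOS cannot be told apart, while CS and air were compared within 1 slide. All CS arrays and air 3 lay in array row 2 and the other arrays in row 1. With the row as a covariate, which takes its term from the air arrays alone, 1 of the 17 probes stayed called for CS against air, that of Il1a, and likewise 1 for IQOS against CS, again that of Il1a. For Il1a this term rests on air 3, the only air array in row 2, where its signal of 1.35 was under the array's background limit of 2.49. These calls of Il1a therefore do not show that it withstands an effect of row. The labels do not say that the replicates were separate animals, so each p-value reflects only how far these samples spread, which may be technical.

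Much of the family was higher with CS, and no member passed the threshold for IQOS against air. For CS against air, 10 of the 17 probes were called at an adjusted p under 0.05, against 10.3% of all tested probes, and all 10 were higher. Taking the brightest tested probe of each gene (by mean signal), 5 of the 10 genes rose (Il1a, Il1b, Il1r2, Il33 and Il18), against 5.6% of all genes called higher. None of the 10 fell, against 6.12% of all genes called lower, and 16 of the 17 probes had an unadjusted p under 0.05. The CS and air arrays did not overlap in 9 of the 10 genes, against 38.2% of all genes. The median log2 change of the 10 genes was 0.80, beside -0.02 for all tested probes. These counts include Il1a, which passed the filter on dim probes only through the CS arrays, where it was highest. The called Il1rap probe passed it only through the CS and IQOS arrays. With only probes above background on all 9 arrays, neither was tested. There 9 member probes were called, among them the brighter probe of Il18bp (adjusted p = 0.0487). In RNA of whole lung, more cells of a type and more RNA per cell cannot be told apart.

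For IQOS against air, limma called 0 of the 17 probes, against 3.72% of all tested probes. This is 0 of 10 genes in either direction, against 1.99% of all genes called higher and 0.886% called lower, and 4 probes had an unadjusted p under 0.05. The groups did not overlap in 3 genes (Il1r2, Il1rap and Il18bp, all higher with IQOS), against 28.1% of all genes, and the median log2 change was 0.17. With a normexp background correction the higher share of all probes called in this comparison was 54.7% in place of 73.7%. For IQOS against CS, 5 of the 17 probes were called, against 9.64% of all tested probes, and all 5 were lower with IQOS. By the brightest probe 3 of the 10 genes fell (Il1a, Il33 and Il18), against 5.18% of all genes called lower and 4.94% called higher. The IQOS and CS arrays did not overlap in 4 genes (these 3 and Il1r1), against 35.3% of all genes, and the median log2 change was -0.53. Il1a entered these counts only through the CS arrays. With only probes above background on all 9 arrays it was not tested, and 4 member probes were called. The 3 comparisons share arrays, so their values are given side by side and not set against each other.

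**Figure D1:**
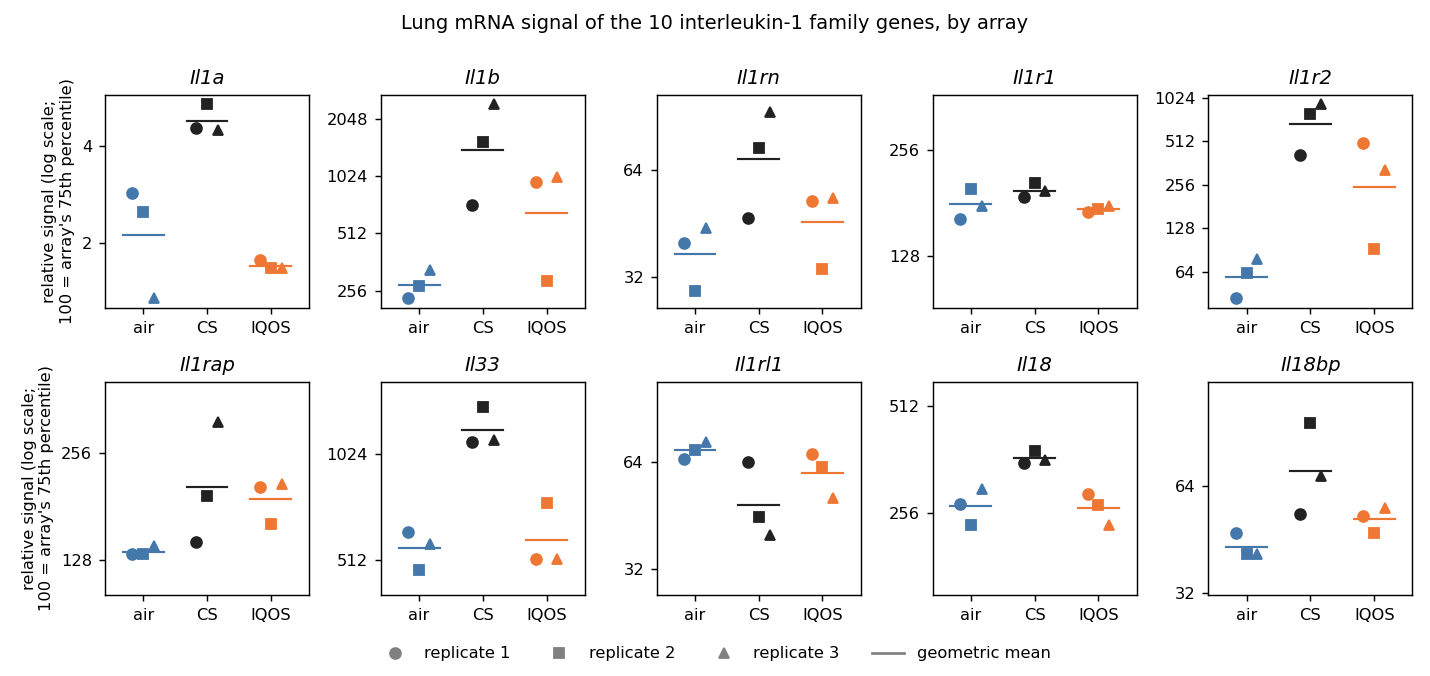
Relative signal (log axis, 100 = the array's 75th percentile) of the brightest probe of each of the 10 genes on the 9 arrays; each point is an array, its shape gives the replicate number and the bar is the group's geometric mean. Il1b and Il1r2 are high on CS 1 to 3, IQOS 1 and IQOS 3, while Il33 and Il18 are highest on the 3 CS arrays; Il1a was well above background on 2 air, 3 CS and 0 IQOS arrays.

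**Figure D2:**
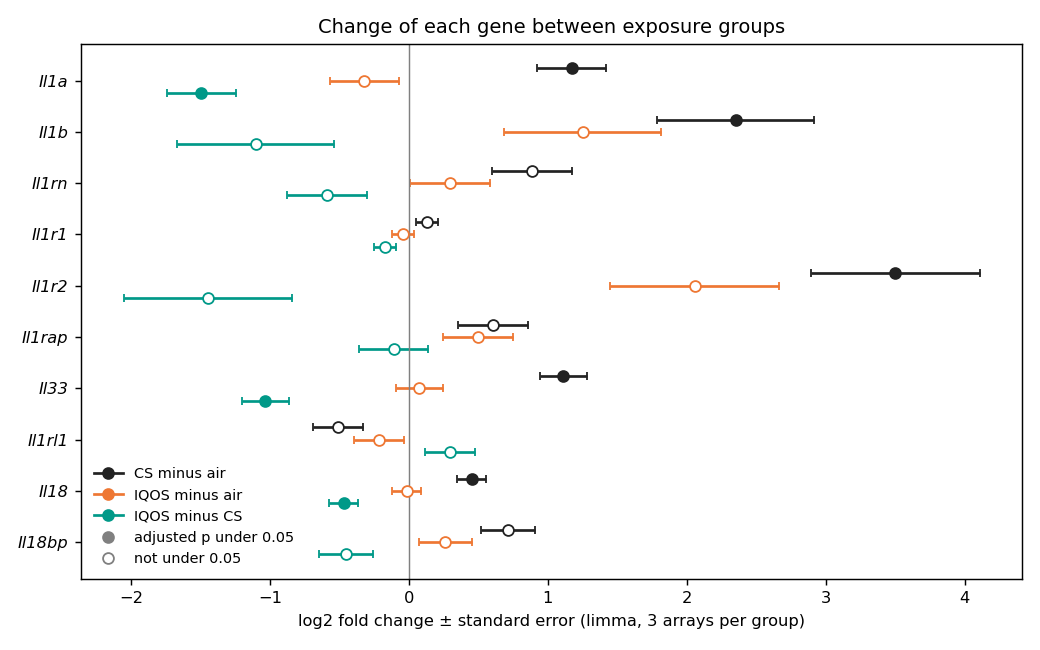
Log2 fold change ± standard error (limma, 3 arrays per group) of the brightest probe of each gene in the 3 comparisons; filled points have an adjusted p under 0.05. For CS minus air 5 points are filled, for IQOS minus air 0, and for IQOS minus CS 3, all negative.

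Il1b, the inducible interleukin-1 that has to be cleaved before it is active, rose with CS on both of its probes. On the brighter probe (A_51_P212782) the relative signal was 233, 270 and 326 on air 1 to 3, 724, 1545 and 2440 on CS 1 to 3, and 952, 287 and 1013 on IQOS 1 to 3. All CS arrays lay above all air arrays, and among the IQOS arrays numbers 1 and 3 lay in the CS range while IQOS 2 lay in the air range. The change for CS against air was 5.10-fold (log2 2.35 ± 0.56 SE, adjusted p = 0.0399), and for IQOS against air it was 2.38-fold (log2 1.25 ± 0.56, adjusted p = 0.246). The call for CS ended when any air array, CS 2, CS 3 or IQOS 1 was left out, with adjusted p-values up to 0.125. Without IQOS 2 the IQOS change was 3.59-fold with an adjusted p of 0.114. Over all arrays left out in turn its log2 value ranged from 0.93 to 1.84, with adjusted p-values from 0.114 to 0.473. The second probe (A_66_P114500) read 38.9, 49.4 and 62.4 in air, 139, 295 and 442 in CS, and 184, 54.7 and 205 in IQOS, with the same arrays high and low. It gave log2 changes of 2.41 for CS (adjusted p = 0.0386) and 1.37 for IQOS (unadjusted p = 0.0438, adjusted p = 0.216).

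Il1a, the interleukin-1 that is active without cleavage and that dying epithelial cells release, was dim in these lungs. Its single probe (A_52_P100926) read 2.85, 2.49 and 1.35 on the air arrays, 4.55, 5.39 and 4.50 on the CS arrays, and 1.77, 1.67 and 1.67 on the IQOS arrays. Only the 3 CS arrays and 2 air arrays were well above background, and the CS values lay above all others. Il1a rose with CS by 2.26-fold (log2 1.17 ± 0.25, adjusted p = 0.0281), a call that any 1 CS array left out brought to an end (adjusted p of at most 0.0914), and that ended when the IQOS arrays were kept out of the fit (0.0595). With the array row as a covariate the fitted change was 3.56-fold, a value that rests on air 3, the air array not well above background. With the normexp background correction the change was 1.33-fold (adjusted p = 0.0371). In IQOS Il1a was at least 2.17-fold lower than in CS (adjusted p = 0.0133, and 0.0504 without CS 2). This bound holds for the main background treatment: with normexp the log2 change was -0.57 (adjusted p = 0.00991), smaller than the bound. Against air the log2 difference with IQOS was -0.32 (adjusted p = 0.491). The probe did not share the high values that Il1b had on IQOS 1 and IQOS 3.

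Il1a and Il1b lie close together on chromosome 2 of the mouse, with an snRNA gene and a pseudogene between their starts in the RefSeq annotation. Their upstream sequences are shown because they are the 2 classical agonists. Neither was called for IQOS against air, Il1a was well above background on 0 IQOS arrays, and a difference between their changes was not tested. Each line gives the 250 bases before the annotated start, 5′ to 3′, from RefSeq (build GRCm38.p6), at chr2:129309973-129310222 on the minus strand for Il1a and chr2:129371140-129371389 on the minus strand for Il1b. Capitals mark a match to an AP-1 motif.
Il1a: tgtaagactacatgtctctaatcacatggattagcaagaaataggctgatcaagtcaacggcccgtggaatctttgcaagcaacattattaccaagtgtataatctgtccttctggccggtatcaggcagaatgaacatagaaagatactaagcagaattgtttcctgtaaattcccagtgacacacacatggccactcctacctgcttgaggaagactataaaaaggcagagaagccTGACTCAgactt
Il1b: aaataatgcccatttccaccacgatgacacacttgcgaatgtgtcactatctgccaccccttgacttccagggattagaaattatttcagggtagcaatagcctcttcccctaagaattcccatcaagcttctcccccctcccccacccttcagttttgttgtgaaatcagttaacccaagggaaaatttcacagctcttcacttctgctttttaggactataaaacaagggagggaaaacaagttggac
The match in Il1a, TGACTCA, lies 12 to 6 bases before the start. The window of Il1b held none of the 3 motifs searched, which are spelled out with the other promoters.

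Il1rn, which encodes the receptor antagonist, has a bright and a dim probe, and they differed in their calls. The bright probe (A_52_P431159) read 39.9, 29.3 and 43.9 on the air arrays, 47.0, 74.1 and 93.5 on the CS arrays, and 52.5, 33.8 and 53.6 on the IQOS arrays. All CS values lay above the air values, with CS 1 closest to them, and IQOS 2 lay inside the air range. Its log2 change with CS was 0.89 ± 0.29 (adjusted p = 0.0884), and it passed the threshold without CS 1 (adjusted p = 0.0429) and as the mean of both probes. With any other array left out it did not pass (adjusted p up to 0.208). The dim probe (A_55_P1962400) read 4.47, 3.70 and 6.22 in air, 12.8, 8.29 and 10.1 in CS, and 5.22, 4.59 and 6.19 in IQOS, and here the CS arrays lay above all 6 others. It was 2.18-fold higher in CS than in air (adjusted p = 0.0238) and 1.93-fold lower in IQOS than in CS (adjusted p = 0.0388). Leaving out air 1, air 2, CS 1 or CS 3 ended the former call (highest adjusted p 0.0856), and any array but air 2 or air 3 the latter (up to 0.112).

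The signalling receptor and the decoy receptor are neighbours in the genome, and of these only the decoy was called for CS against air. The difference between their changes was tested separately, as given below, and did not pass the threshold. Il1r1, the signalling receptor of both agonists (A_51_P271503), read 163, 199 and 178 in air, 188, 206 and 195 in CS, and 171, 174 and 178 in IQOS. These values overlapped between air and both exposures. Its log2 difference was 0.13 ± 0.08 for CS (adjusted p = 0.327) and -0.04 ± 0.08 for IQOS (adjusted p = 0.805).

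Il1r2, the decoy receptor carried by neutrophils and some macrophages, had the largest change of the 10 genes in both comparisons with air. The brighter probe (A_55_P2804650) read 41.8, 62.8 and 78.5 in air, 412, 792 and 920 in CS, and 497, 91.9 and 325 in IQOS. Every CS and every IQOS value lay above every air value, IQOS 2 by a small margin. The dimmer probe (A_52_P417890) had the same order, with 7.20, 11.2 and 12.2 in air, 67.2, 159 and 166 in CS, and 81.2, 16.7 and 51.4 in IQOS. The changes with CS were 11.3-fold and 12.2-fold on these probes (adjusted p = 0.0158 and 0.0138), and leaving out air 1 or CS 2 ended both calls (highest adjusted p 0.0653). With normexp the dimmer probe changed by 7.61-fold. With IQOS they were 4.16-fold and 4.14-fold (unadjusted p = 0.0095 and 0.00842, adjusted p = 0.104 and 0.0976). Without IQOS 2 the brighter probe was 6.80-fold higher than in air with an adjusted p of 0.0502. Over all arrays left out in turn its log2 change ranged from 1.55 to 2.77, with adjusted p-values from 0.0502 to 0.284.

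The sequence upstream of Il1r2 is shown because this gene changed most and its window holds a stretch, in capitals, that matches the κB motif GGNNNTTCC on either strand. The line gives the 250 bases before the start at chr1:40085843-40086092 on the plus strand (RefSeq, GRCm38.p6).
Il1r2: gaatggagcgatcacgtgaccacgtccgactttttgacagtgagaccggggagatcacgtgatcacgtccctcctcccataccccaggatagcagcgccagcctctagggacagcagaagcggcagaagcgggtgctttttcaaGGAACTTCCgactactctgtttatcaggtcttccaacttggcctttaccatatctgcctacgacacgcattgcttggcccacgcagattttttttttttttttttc
The match lies 106 to 98 bases before the start, and this motif was in 18.5% of all 32851 promoter windows. The other genes that rose with CS by their brightest probe, Il1a, Il1b, Il33 and Il18, had no κB match. A match describes these letters and not a bound site.

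On chromosome 1 the protein-coding genes follow each other as Il1r2, Il1r1, Il1rl2, Il1rl1, Il18r1 and Il18rap. Across this receptor cluster the log2 changes with CS were 3.50 for Il1r2, 0.13 for Il1r1, -0.51 for Il1rl1, -0.16 for Il18r1 and 1.36 for Il18rap, while Il1rl2 was not tested because it was too dim. The genes at both ends of the cluster rose, and the 3 tested genes between them did not pass the threshold.

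Il1rap, the shared accessory chain for IL-1R1 and ST2, was covered by 3 probes that name different RefSeq transcripts. The brightest (A_55_P2807476, NM_008364) read 133, 133 and 140 in air, 144, 194 and 313 in CS, and 206, 161 and 210 in IQOS, and neither exposure overlapped with air. Its log2 changes were 0.61 with CS (adjusted p = 0.157) and 0.50 with IQOS (adjusted p = 0.294). The second (A_52_P467232, NM_134103) read 19.0, 19.2 and 19.9 in air, 26.2, 30.6 and 59.5 in CS, and 33.5, 23.6 and 34.0 in IQOS, and again both exposures lay above air on every array. It gave log2 changes of 0.91 (adjusted p = 0.0828) and 0.63 (adjusted p = 0.251). The dimmest (A_52_P207374, NM_001159318) read 1.44, 1.91 and 2.35 in air, 3.67, 8.22 and 14.9 in CS, and 7.81, 5.43 and 5.93 in IQOS, and was well above background on 0 air, 3 CS and 3 IQOS arrays. It was at least 3.08-fold higher in CS than in air (adjusted p = 0.0328) and at least 2.53-fold higher in IQOS (adjusted p = 0.0762). With normexp both changes were under these bounds, at 1.90-fold for CS (adjusted p = 0.0377) and 1.55-fold for IQOS (adjusted p = 0.130). The CS call of this probe ended without any 1 air array, CS 2 or CS 3, and with only the air and CS arrays in the fit (adjusted p up to 0.113). With only the air and IQOS arrays in the fit, or without CS 1 or CS 3, its IQOS change passed the threshold (lowest adjusted p = 0.0320). On all 3 probes the IQOS arrays differed less from each other than for Il1r2.

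For the brightest probes of Il1b, Il1r2, Il1rn and Il1rap, CS 3 was the highest CS array and IQOS 2 the lowest IQOS array. The summed signal of the neutrophil markers, in which bright probes weigh most, had the same highest and lowest arrays. On the dim probe of Il1rn, the called one, CS 1 was the highest. The summed relative signal of 13 neutrophil markers was 18717, 20147 and 23997 on air 1 to 3, 34641, 55043 and 75999.8 on CS 1 to 3, and 44379, 18724 and 43983 on IQOS 1 to 3. As for Il1b, IQOS 2 lay at the air level while IQOS 1 and IQOS 3 lay in the CS range. Of the 13 markers, 3 rose with CS (Clec4d, Clec4e and Trem1) and 0 were called with IQOS, and none was below background on all arrays of a group. Their part in the change of these 4 genes was not tested.

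**Figure D3:**
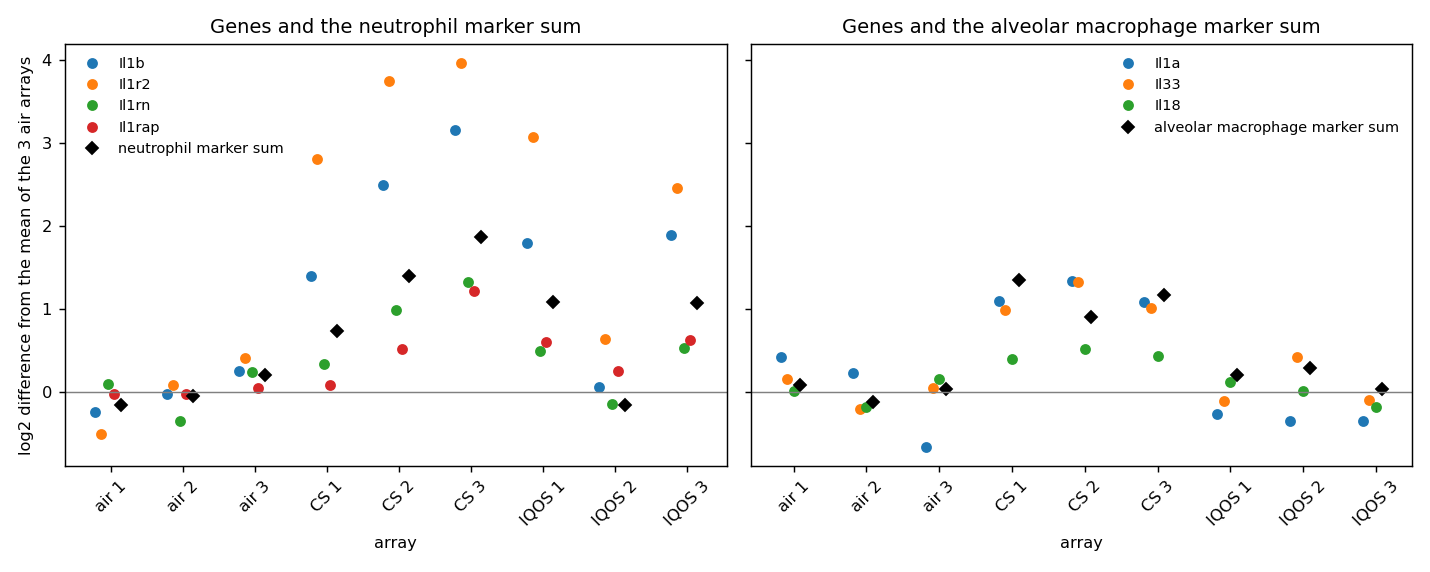
Log2 difference of each array from the mean of the 3 air arrays (y axis) for members of the family (circles) and for the summed signal of a marker list (black diamonds), by array. In the left panel Il1b, Il1r2 and the neutrophil sum are low on IQOS 2 and high on IQOS 1 and 3; in the right panel Il1a, Il33, Il18 and the alveolar macrophage sum are high on the 3 CS arrays, where Il18 lies 0.40 to 0.52 above the air mean.

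Il33, the alarmin of barrier cells, rose with CS and not with IQOS, in an order of arrays unlike that of Il1b. The brighter probe (A_55_P1964960) read 616, 482 and 571 in air, 1103, 1386 and 1120 in CS, and 516, 745 and 518 in IQOS. The 3 CS arrays lay above the other 6, and here IQOS 2 was the highest of the IQOS arrays. The CS arrays were 2.16-fold above air and the IQOS arrays 2.05-fold below CS (adjusted p = 0.0114 and 0.0127), and both calls held with each array left out in turn (adjusted p up to 0.0408 and 0.0462). For IQOS against air the log2 difference was 0.08 ± 0.17 (adjusted p = 0.829), and it was -0.10 without IQOS 2. The second probe (A_55_P2614900) read 39.95, 33.3 and 37.4 in air, 58.4, 73.1 and 63.2 in CS, and 25.5, 42.9 and 26.9 in IQOS, again with all CS arrays on top. It was 1.76-fold higher in CS than in air, a call that ended with the replicate block and without any 1 air or CS array (adjusted p = 0.0400, and up to 0.120), and 2.09-fold lower in IQOS than in CS (adjusted p = 0.0180, and up to 0.0636 without CS 2, CS 3, IQOS 1 or IQOS 3).

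RefSeq gives Il33 starts at 2 places on chromosome 19. The sequences before both are shown because the calls of its brighter probe held with each array left out in turn. They lie at chr19:29924863-29925112 and chr19:29945540-29945789 on the plus strand (GRCm38.p6), and capitals mark a C/EBP motif.
Il33 distal start: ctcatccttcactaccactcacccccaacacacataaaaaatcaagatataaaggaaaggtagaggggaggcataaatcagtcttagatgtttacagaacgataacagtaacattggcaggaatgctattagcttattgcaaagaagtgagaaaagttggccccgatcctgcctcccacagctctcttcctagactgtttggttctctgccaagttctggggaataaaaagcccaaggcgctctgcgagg
Il33 proximal start: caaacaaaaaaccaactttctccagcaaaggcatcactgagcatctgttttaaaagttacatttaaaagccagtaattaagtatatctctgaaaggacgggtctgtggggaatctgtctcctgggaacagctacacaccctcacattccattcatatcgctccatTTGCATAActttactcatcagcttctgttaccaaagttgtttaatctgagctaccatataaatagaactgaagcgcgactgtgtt
The C/EBP match lies 85 to 78 bases before the proximal start, and the distal window held no match.

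Il1rl1 encodes ST2, in a membrane form that signals for IL-33 and a soluble form that captures it. The probe above background (A_55_P2027737, NM_001025602) read 65.3, 69.0 and 72.8 in air, 63.8, 44.7 and 39.8 in CS, and 67.2, 61.8 and 50.5 in IQOS. CS 2 and CS 3 were the lowest arrays, while CS 1 lay just under the air range. The log2 difference was -0.51 ± 0.18 for CS (adjusted p = 0.105) and -0.22 for IQOS (adjusted p = 0.517), and without CS 1 the former passed the threshold (adjusted p = 0.0299). With any other array left out the CS difference did not pass (adjusted p up to 0.247). The other probes, A_55_P2027731 for the same transcript and A_51_P339793 for NM_010743, were not well above background on any of the 9 arrays and were not tested.

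Il18, a cytokine made by macrophages and epithelium and activated by caspase-1, rose with CS by a small factor. Its probe (A_55_P2732528) read 270, 235 and 297 in air, 352, 381 and 361 in CS, and 289, 268 and 236 in IQOS. The CS arrays lay close together above all others, and the IQOS values lay in the air range. The change was 1.37-fold with CS (log2 0.45 ± 0.11, adjusted p = 0.0375), and IQOS was 1.38-fold below CS (adjusted p = 0.0337). Both calls ended with most arrays left out in turn and with the replicate block, with adjusted p-values up to 0.114 and 0.105 among the arrays left out. For IQOS against air the log2 difference was -0.02 ± 0.11 (adjusted p = 0.947).

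Il18bp, the soluble inhibitor of IL-18, read 47.1, 41.3 and 41.2 in air, 53.4, 96.5 and 68.4 in CS, and 52.8, 47.3 and 55.3 in IQOS on its brighter probe (A_52_P577384). Both exposures lay above air on every array, IQOS 2 by the smallest margin, and CS 2 was the highest array. The log2 change with CS was 0.71 ± 0.19 (adjusted p = 0.0541), and it passed the threshold without CS 1 (adjusted p = 0.0256). With any other array left out it did not pass (adjusted p up to 0.125). With IQOS it was 0.26 ± 0.19 (adjusted p = 0.461). The second probe (A_52_P577386) read 29.0, 27.2 and 31.0 in air, 30.7, 58.2 and 40.6 in CS, and 33.1, 28.6 and 33.7 in IQOS, and here CS 1 and IQOS 2 lay within the air range. It gave 0.52 for CS (adjusted p = 0.139) and 0.13 for IQOS (adjusted p = 0.755).

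Like Il1a, Il33 and Il18, the summed signal of the alveolar macrophage markers was highest on the CS arrays, but the markers were split in direction. The summed signal of 9 such markers was 12743, 11050.3 and 12381 in air, 30699, 22449 and 27081 in CS, and 13942, 14742 and 12336 in IQOS, with all CS arrays above all others. Of the 9 markers, 4 rose with CS (Chil3, Itgax, Marco and Pparg), against 5.6% of all genes. With IQOS against air 0 were called, and the remaining 5 did not pass the threshold for CS. Of those 5, Ear1 was higher with CS and Car4, Fabp4, Krt79 and Siglecf were lower (log2 -0.18, -0.92, -0.05 and -0.09), and the median over the 9 was 0.36. None of the 9 was below background on all arrays of a group. The part of these cells in the change of the 3 cytokines was not tested.

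**Figure D4:**
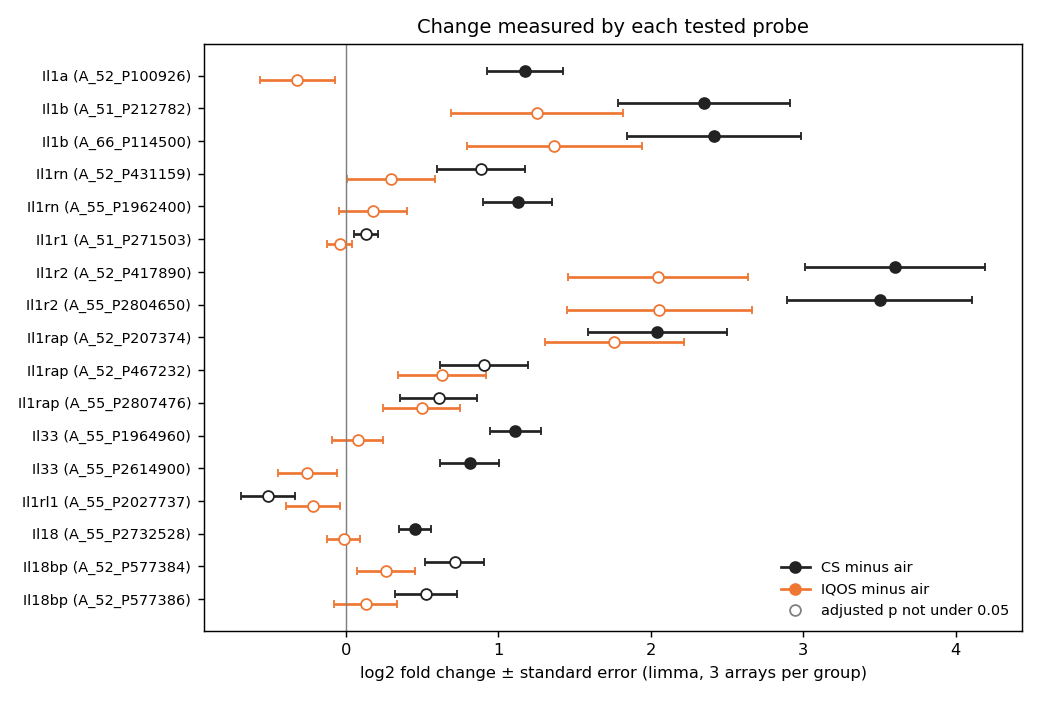
Log2 fold change ± standard error (limma, 3 arrays per group) of each of the 17 tested probes for CS minus air and IQOS minus air; filled points have an adjusted p under 0.05. Probes of a gene point the same way for CS, with 10 filled points, and 0 points are filled for IQOS.

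Whether an inhibitor changed by as much as its partner was asked from the per-array difference of their log2 values, with exact two-sided permutation tests over 3 arrays against 3, which cannot give a p below 0.1. In all 21 differences were tested, and every p of 0.1 became 0.21 after Benjamini-Hochberg adjustment, so none passes a threshold of 0.05. For CS against air, Il1r2 changed by 3.37 more than Il1r1 on the log2 scale and by 1.15 more than Il1b (exact p = 0.1 each). Il1rn changed by 1.46 less than Il1b (log2 difference -1.46), and Il1rl1 by 1.62 less than Il33 (log2 difference -1.62), again with an exact p of 0.1 and no overlap of the groups. The difference of Il18bp and Il18 moved by 0.26 (exact p = 0.4) and that of Il1rn and Il1a by -0.29 (exact p = 0.6). For IQOS against air, Il1r2 changed by 2.10 more than Il1r1 and by 0.81 more than Il1b, and Il18bp by 0.28 more than Il18 (exact p = 0.1 each). For Il1rap, the probe for NM_134103 changed by 0.30 more than that for NM_008364 in CS against air and by 0.13 more in IQOS against air (exact p = 0.1 each). For IQOS against CS, Il1rl1 moved by 1.33 more than Il33 (exact p = 0.1).

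RefSeq's promoter table held 15 windows for the 10 genes, each from 250 bases before to 50 after a start. Both strands were searched for the κB motif GGNNNTTCC, the AP-1 motif TGANTCA and the C/EBP motif TTGCNNAA. The κB motif was in 7 of the 15 windows and in 18.5% of all 32851 windows, the AP-1 motif in 2 and in 7.81% of all, and the C/EBP motif in 4 and in 10.8% of all. Genes with a κB match were Il1rn, Il1r1, Il1r2, Il1rl1 and Il18bp, and of these only Il1r2 rose by its brightest probe. Of the 3 Il1rn windows 2 overlap and share a match, and the κB and C/EBP matches of Il18bp overlap by 4 bases. The windows of Il1b, Il1rap and Il18 and the distal window of Il33 held no match.

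The wider interleukin-1 system was examined in gene lists, again by the brightest probe. The lists were chosen with earlier results of these data known. Of all genes, 5.6% were called higher and 6.12% lower for CS against air, and 1.99% and 0.886% for IQOS against air. For IQOS against CS the shares were 4.94% and 5.18%. These shares stand beside the counts of every list below. Of 19 tested IL-1-inducible genes, 11 rose with CS and 0 fell, with a median log2 change of 0.84. Cxcl1 and Cxcl2, chemokines for neutrophils, changed by 2.41 and 1.96 on the log2 scale (adjusted p = 0.00685 and 0.00649), Lcn2, an iron-binding protein of innate defence, by 1.85 (0.00779), and Zc3h12a, an RNase that limits cytokine mRNA, by 1.03 (0.00779). These 4 calls held with each array left out in turn. With IQOS against air 1 of the 19 rose, Zc3h12a (log2 0.73, adjusted p = 0.0341, ended by leaving out 6 of the 9 arrays in turn), and the median was 0.04. With IQOS against CS 9 of the 19 fell, among them Il6 by 2.47, Saa3 by 2.33, Cxcl1 by 2.02 and Cxcl2 by 1.98 on the log2 scale (adjusted p = 0.00905, 0.0153, 0.0101 and 0.0051), and the call of Saa3 ended without IQOS 1 or IQOS 2 (adjusted p up to 0.0509).

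Cxcl1 read 36.7, 43.9 and 37.6 in air, 285, 117 and 275 in CS, and 50.3, 48.3 and 56.1 in IQOS, so the IQOS arrays stood just above air and far below CS. The 3 IQOS arrays lay between 48.3 and 56.1, closer together than for Il1b.

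Of 10 tested IL-33-responsive and type 2 genes, 5 rose with CS and 1 fell, against 5.6% and 6.12% of all genes. The median log2 change was 0.62. Areg, an epithelial growth factor, changed by 2.38, Retnla, a product of alternatively activated macrophages, by 1.86, Chil4, a chitinase-like protein, by 1.83 and Csf2rb, a receptor chain for GM-CSF, IL-3 and IL-5, by 1.59 (adjusted p = 0.00483, 0.00202, 0.0036 and 0.00607). These calls held with each array left out in turn, and the gene that fell was Ccl24, an eosinophil chemokine (log2 -1.01, adjusted p = 0.0457). Retnla read 2536, 2247 and 2814 in air, 9166, 9229.6 and 9097 in CS, and 2836, 2000 and 2920 in IQOS, a separation of CS from the other 6 arrays like that of Il33. With IQOS 0 of the 10 were called against air, with 0 at an unadjusted p under 0.05, and 5 fell against CS, with log2 changes of -2.77 for Areg, -1.85 for Retnla, -1.43 for Chil4 and -1.16 for Csf2rb. Of the type 2 cytokines themselves, Il4 was among the 10 tested genes, while Il5, Il13 and Il9 were too dim to be tested, as was Ccl22.

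Of 17 genes of IL-1 receptor signalling, 2 rose with CS, against 5.6% of all genes, and the median log2 change was 0.03. They were Map3k8, a kinase upstream of ERK (log2 0.50, adjusted p = 0.0165), and Myd88, the adaptor of the receptor (log2 0.67, adjusted p = 0.0303). The call of Map3k8 ended without air 1 or CS 2, and that of Myd88 without any 1 air array, CS 2 or CS 3 (at most 0.0697 and 0.0998 after adjustment). With IQOS, Nfkb1, an NF-κB subunit, was lower than in air and in CS (log2 -0.29 and -0.25, adjusted p = 0.0448 and 0.0431), and each call ended with any 1 array left out. Of 15 inflammasome and processing genes, 3 rose with CS, against 5.6% of all genes. They were P2rx7, the ATP receptor that triggers the inflammasome (log2 0.68, adjusted p = 0.0143), Casp4, the sensor of cytosolic endotoxin (0.96, 0.0223), and Naip2, a sensor of bacterial secretion systems (0.48, 0.0405). P2rx7 lost its call without CS 2 (0.0505), Casp4 without air 1, air 2 or CS 2, and Naip2 with 7 of the 9 arrays left out in turn. Casp1 and Nlrp3 had log2 differences of 0.48 (adjusted p = 0.0888) and -0.15 (0.704). With IQOS 0 of these 15 were called against air, with 0 at an unadjusted p under 0.05, and P2rx7 and Casp4 were lower than in CS (log2 -0.80 and -0.79, adjusted p = 0.00812 and 0.0379). Of these, the call of Casp4 ended with 7 of the 9 arrays left out in turn. With array row as a covariate, 1 of the IL-1-inducible, 3 of the IL-33-responsive (Retnla, Chil4 and Areg) and 1 of the inflammasome genes (P2rx7) were called higher for CS against air, and no gene of these lists was called in the comparisons with IQOS.

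Of the 4 tested family genes outside the 10, Il18rap, the accessory chain of the IL-18 receptor, rose with CS (log2 1.36, adjusted p = 0.0487), a call that 12 of 19 alternatives ended. It read 12.5, 11.6 and 13.5 in air, 20.8, 32.5 and 48.2 in CS, and 28.5, 12.5 and 20.5 in IQOS, again with IQOS 2 at the air level. The ligand Il36g, named Il1f9 in the RefSeq annotation used, had a log2 difference of 2.01 (adjusted p = 0.08). Of the neutrophil proteases that process these cytokines, Elane and Prtn3 were tested and neither was called for CS. With IQOS against air the 2 went opposite ways: Elane was called higher, and Prtn3 was lower and not called. Both had an unadjusted limma p under 0.05 and no overlap with air, and their median log2 change was -0.10. Elane rose with IQOS, reading 82.2, 79.6 and 78.5 in air, 84.4, 86.9 and 85.3 in CS, and 118, 162 and 134 in IQOS, with all IQOS arrays above all others. Its log2 change was 0.77 against air (adjusted p = 0.0142, ended without air 1 or air 3, with only the arrays compared and with array row, with values up to 0.0671) and 0.68 against CS (adjusted p = 0.0113, and 0.315 with array row). IQOS 2 was its highest array, unlike for Il1b and Il1r2.

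**Figure D5:**
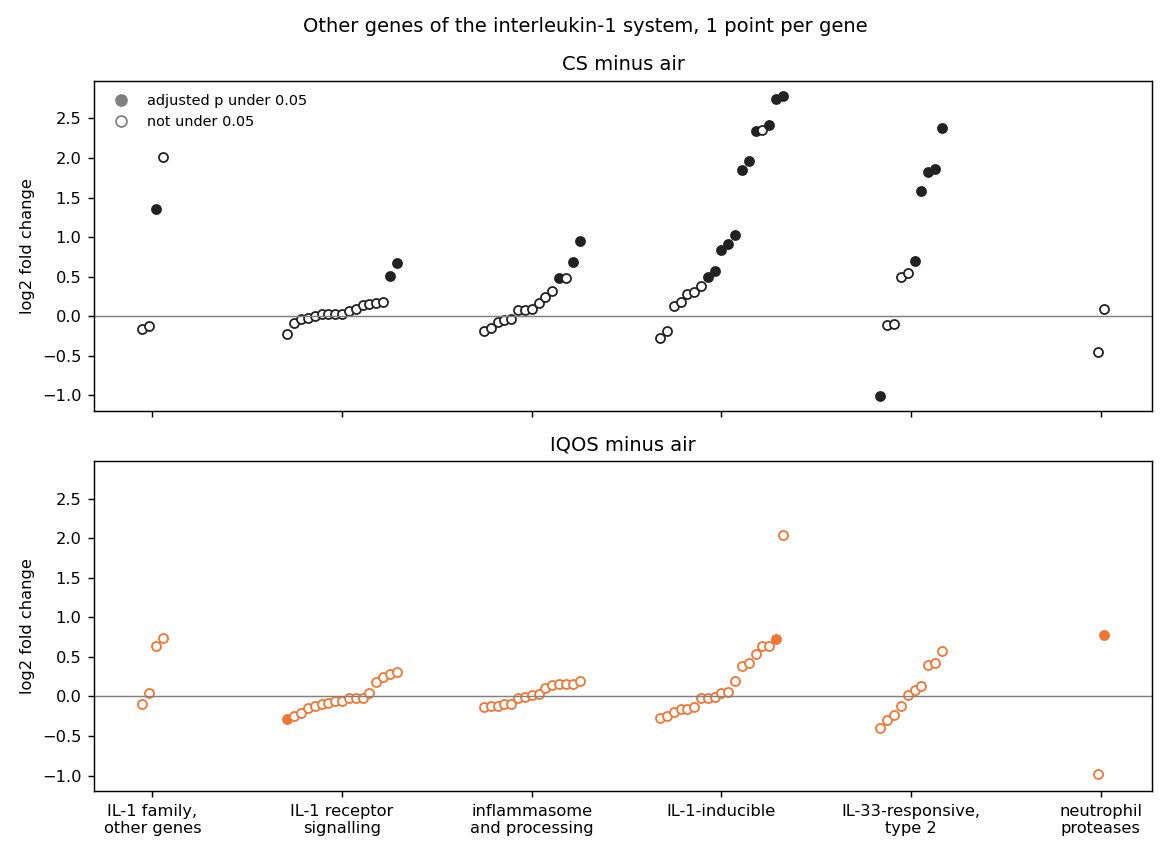
Log2 fold change (y axis) of each tested gene in 6 lists of the wider interleukin-1 system for CS minus air (top) and IQOS minus air (bottom); filled points have an adjusted p under 0.05. With CS 11 of 19 IL-1-inducible and 5 of 10 IL-33-responsive genes rose, and with IQOS 1 and 0. Of all genes, 5.6% were called higher with CS and 1.99% with IQOS.

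The genes most like each called member over the 9 arrays were found by Pearson correlation among 16501 genes, as a description in which the groups and the arrays' cell content are shared by all points. For Il1b they were Lpcat2 (r = 0.998), Clec4d (0.996) and Cd300ld (0.996), and for Il1r2 Slc16a3 (0.989), Snx20 (0.989) and Clec4e (0.987). For Il33 they were Map3k9 (0.992), Hp (0.979) and Npc2 (0.978), and for Il18 Siglec1 (0.982), Tmem243 (0.974) and Abcg1 (0.971). For the dim Il1a they were H3c4 (0.981), Memo1 (0.964) and P2rx7 (0.963). Clec4d and Clec4e are also on the list of neutrophil markers. The leading genes depended on the setting, and between 6 and 14 of the 15 were named again under an alternative, a check added after the data were seen.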

How the data were processed

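Cy3 cRNA was made from 100 ng of lung RNA, per the labels. The deposited spot intensities are the processed signal of Feature Extraction 10.7.1.1 (Agilent), per the file headers, not normalized between arrays. The deposited series matrix holds a ratio of each signal to its array's 75th percentile, a scale found from the values, with no log and no centring of probes. Its 9 column medians were 0.114, 0.116, 0.121, 0.12, 0.118, 0.117, 0.12, 0.12 and 0.12.

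Log2 values were computed from the deposited intensities. Control and outlier spots were left out, spots of a probe averaged, and the log2 of the array's 75th percentile over non-control probes (973.3 to 1098 units, 0 saturated spots) subtracted. Tests covered the 37258 probes that had at least 2 values per group and, in at least 1 group, exceeded background wherever a value existed. Signal over background and the number of arrays limit the precision. Probes were named through RefSeq accessions (58.29% have 1 symbol), and a gene is represented by its tested probe with the highest mean signal.

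The 3 contrasts came from limma 3.58.1 (lmFit and eBayes over all 9 arrays, R 4.3.3), with calls where the p adjusted over all tested probes (Benjamini-Hochberg) was under 0.05, after a check on simulated data. Where 1 group was not well above background on any array, the fold is a lower bound against that group's background limit. The text names all 10 genes, per list and comparison at most 4 called genes, smallest p first, and the 3 genes most alike to each called member. The markers called, Casp1, Nlrp3, Il36g, Ccl24 and the receptor cluster were named after their values were seen. The members and lists were chosen with earlier results of these data known. The planned mean signal column is not in the files used here, so normexp used the median signal. Alternatives were normexp (offset 50), quantile normalization, median centring, other filters, the series matrix, a trended prior, the replicate block, array row, the mean of probes, only the groups compared, and each array left out.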

Additional observations from a re-analysis of the deposited data

How the results depend on the processing

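Over 980 combinations of a member probe, a comparison and an alternative, 867 kept the direction and the side of the threshold, 87 lost a call, 12 gained one and 14 changed sign, all of the last for differences that were not called. Member probes called for CS against air numbered 10, 3 with no filter on dim probes and 1 with array row as a covariate, and 2 (without air 1 or CS 2) to 10 with an array left out. For IQOS against air there were 0, 1 with only the arrays compared, and 0 to 1 (without CS 1 or CS 3) with an array left out. For IQOS against CS there were 5, 3 with no filter, 1 with array row, and 1 (without CS 2) to 5 with an array left out. Where the filter was dropped, more probes were tested; the cause of the other changes was not tested. With the replicate number as a block 8, 0 and 4 member probes were called. Same-numbered arrays did not pair between CS and air: their deviations correlated by -0.08 to -0.04, and 0 of 3 arrays correlated best with their own number. Between IQOS and air the deviations correlated by 0.08 to 0.20, beside -0.165 to -0.002 for unlike numbers, and 3 of 3 matched their own number best. Between IQOS and CS the values were 0.01 to 0.16, beside -0.251 to 0.12, and 2 of 3. Changes of sign for IQOS against air were 0.086 for Il1r1 and -0.013 for Il1rn (dim probe) with normexp, -0.088 for Il33 with the mean of its probes and 0.064 for Il18 with array row; with an array left out Il1r1 ranged from -0.111 to 0.034, Il33 from -0.10 to 0.17 and Il18 from -0.105 to 0.064. For IQOS against CS the Il1rap probe A_52_P207374 was 0.22 with array row, and with an array left out it ranged from -0.81 to 0.20, A_52_P467232 from -0.51 to 0.079 and A_55_P2807476 from -0.37 to 0.19. The difference of Il1rn and Il1a for CS was 0.35 with normexp and -0.57 to 0.16 with an array left out; that of Il18bp and Il18 for IQOS against CS was -0.017 with quantile normalization and -0.16 to 0.21. No setting moved the median of all probes by over 0.1.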
